A study of Mus musculus with 80 samples.

Results

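The libraries described here compare a Western diet with a normal diet in the left ventricle of male C57Bl/6J mice that received no irradiation. They are the 20 libraries of 80 in the series that the labels give as male, field Sham and 0 cGy (cGy, centigray, measures absorbed dose), chosen by these labels and not by any measured value. The 10 Western libraries carry titles M11 to M15 and M31 to M35, and the 10 Normal libraries carry titles M6 to M10 and M26 to M30. The whole series holds 8 groups of 10 libraries, made of these diets and 2 radiation fields on the normal diet in each sex, and it asks about lasting effects of radiation and diet on the heart. All 20 libraries share the strain, the sex, the Sham field and the dose of 0 cGy, and the labels name no further allele or agent. The labels give neither the composition of the diets nor the age, the time on the diet or the hour at which tissue was taken. They do not say that libraries come from separate animals, so p-values measure the spread between libraries, which may in part be technical.

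The ventricle lives mainly on fatty acids, and lipid overload is known to act there through the PPAR nuclear receptors, which switch on genes of fatty acid oxidation. Heart muscle also has its own circadian clock, in which Bmal1 with Clock or Npas2 drives the Per and Cry repressors, the REV-ERB receptors Nr1d1 and Nr1d2, and the output factors Dbp, Tef and Hlf, and the REV-ERB receptors in turn repress Bmal1. Meal times and diet are among the signals that can shift clocks of peripheral tissues.

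The 20 libraries held 14086850 to 17994738 counts each, with a mean of 15423147. Levels are given as CPM, counts put on a common library total, with TMM scaling to match the bulk of genes between libraries. Myl2, the ventricular light chain, had 5190 to 7970 CPM in every library, and the male labels were borne out by Ddx3y, at no less than 37.6 CPM, and Xist, at no more than 0.707 CPM. Both groups hold 5 libraries with title numbers from 1 to 20 and 5 with title numbers from 21 to 40, called the first and second run of title numbers below; the labels do not say what separates them. No library pair was close enough to be a copy: chi-square per degree of freedom was at least 5.96 between Western and at least 4.06 between Normal libraries.

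The libraries did not all stand with their diet. The 18S ribosomal RNA gene Rn18s-rs5, which poly-A selection should largely remove, took 0.178 to 0.419% of the counts in Western M11 to M15. It took 0.293% in Normal M10, and 1.58 to 1.95% in Normal M6 to M9. Second-run libraries gave it 1.46 to 2.32% on the Western diet and 1.5 to 3.22% on the normal one. Lars2, whose mouse locus carries sequence like ribosomal RNA, followed the same split, with 126 to 249 CPM in Western M11 to M15 and 177 CPM in Normal M10, against 1160 to 1660 CPM in Normal M6 to M9. The first principal component, 26.7% of the variance, put Western M11 to M15 at -38.8 to -25, Normal M10 at -41.4 and Normal M6 to M9 at 3.4 to 5.68. In the first run, the diet and this library difference therefore nearly coincide, and apart from Normal M10 they cannot be told apart there. Irradiated first-run males on the normal diet, outside these 20 libraries, held both low and high shares of Rn18s-rs5. Low ones were 0.212% in M1 and 0.161% in M16, and high ones 1.63% in M5 and 2.26% in M18. Atrial muscle transcripts also differed by run. Myl7, the atrial light chain, had 16.7 to 230 CPM in first-run Western and 60.5 to 190 CPM in first-run Normal libraries. In the second run it had at most 0.536 CPM in Western libraries and at most 1.63 CPM in Normal libraries other than M26, which held 112 CPM of Myl7 and 164 CPM of the atrial growth factor Bmp10.

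**Figure D1:**
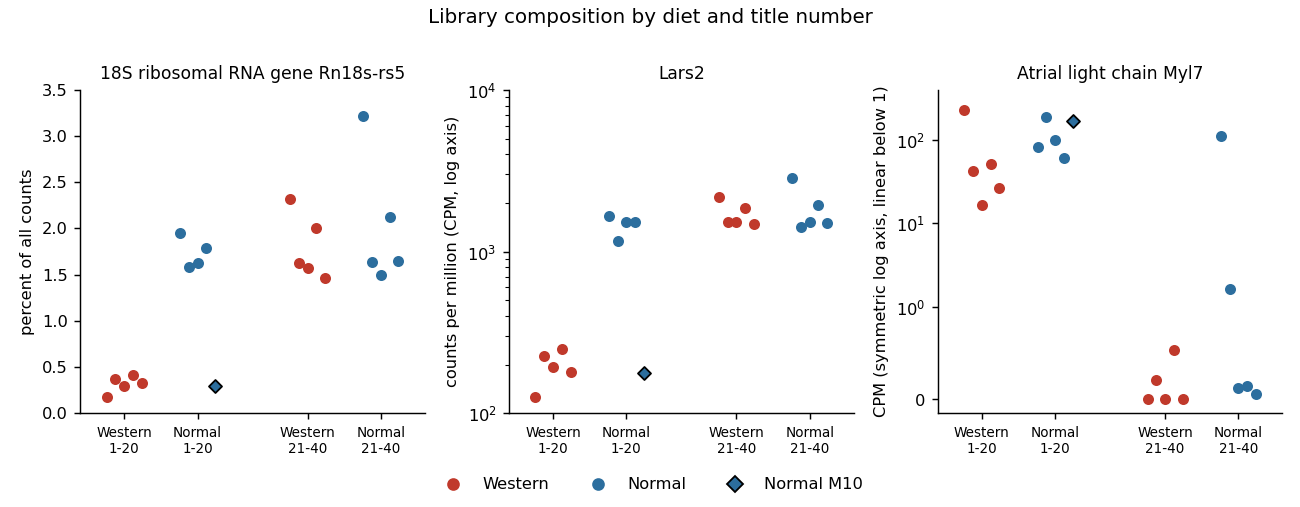
Each point is 1 library, grouped on the x axis by diet and title number, with the percent of counts of Rn18s-rs5, the CPM of Lars2 (log axis) and the CPM of Myl7 (symmetric log axis) on the y axes. The 5 first-run Western libraries (0.178 to 0.419% Rn18s-rs5) lie with Normal M10 (diamond, 0.293%) and apart from Normal M6 to M9 (1.58 to 1.95%).

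On the Western diet 77 genes rose and 112 fell by edgeR's quasi-likelihood test with a term for the run of title numbers, at a Benjamini-Hochberg adjusted p under 0.05 (called, below). These 189 called genes are 1.34% of the 14114 tested, 0.546% higher and 0.794% lower. Changes were modest, with a median absolute log2 fold change (Western over Normal, as everywhere below) of 0.39 and a median standard error (SE) of 0.09. In such bulk tissue, fewer cells of a type and less RNA per cell cannot be told apart. Without Normal M10 the count was 814, 452 higher and 362 lower. It was 429 without Normal M27, 373 without Western M31 and 319 without Western M32. It was 69 to 117 without any 1 of Western M11 to M15, M34 and M35 or of Normal M6 to M9. An unadjusted p under 0.05 was found for 2610 genes (18.5%). Within the first run alone 1380 genes were called (9.78%), 845 higher (5.99%) and 535 lower (3.79%), and within the second run edgeR called 0 (869, or 6.16%, at an unadjusted p under 0.05). Over the 189 genes the absolute change had a median of 0.51 in the first run and 0.29 in the second.

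The 189 genes were set against the 18S difference directly, by adding a term for the 6 libraries with under 0.5% of Rn18s-rs5, an alternative chosen after the libraries had been seen. With it 34 genes were called (0.241%), of which 23 rose (0.163%) and 11 fell (0.0779%), and 1219 (8.64%) had an unadjusted p under 0.05. Of the 34, 23 were among the 189, and the 189 had a median absolute change of 0.27. With the log2 share of Rn18s-rs5 itself as a term, 9 genes were called (0.0638%), of which 6 rose (0.0425%) and 3 fell (0.0213%), all 9 among the 189, and 1135 (8.04%) had an unadjusted p under 0.05. Of the 24 largest rises and falls named below, 24 kept their calls without Normal M10, the only first-run Normal library low in 18S RNA. Diet and the library difference coincide in the first run of that fit, so calls kept in it cannot separate them. With the low-18S term 8 kept their calls and 16 lost them, Mthfd1l (0.81, edgeR adjusted p = 0.27), Spon2 (-1.64, 0.075), Bmal1 (-1.19, 0.0705), Col5a3 (-0.59, 0.292), Slc41a3 (-0.43, 0.305) and Ahnak (0.36, 0.114) among the latter. Among the 23 were the alcohol dehydrogenase Adh1, the transcription elongation factor Leo1, the tetraspanin Tspan4, the bicarbonate transporter Slc4a8, the clock genes Per2 and Tef, the monooxygenase Fmo2, the glutamine synthetase gene Glul, the collagen chaperone Serpinh1 and the AMP-activated kinase subunit Prkag3. Of these, Adh1 had a log2 change of 0.89 ± 0.11 (SE) in the first run and 0.93 ± 0.17 in the second, and Prkag3 had -0.48 ± 0.21 and -0.85 ± 0.18.

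**Figure D2:**
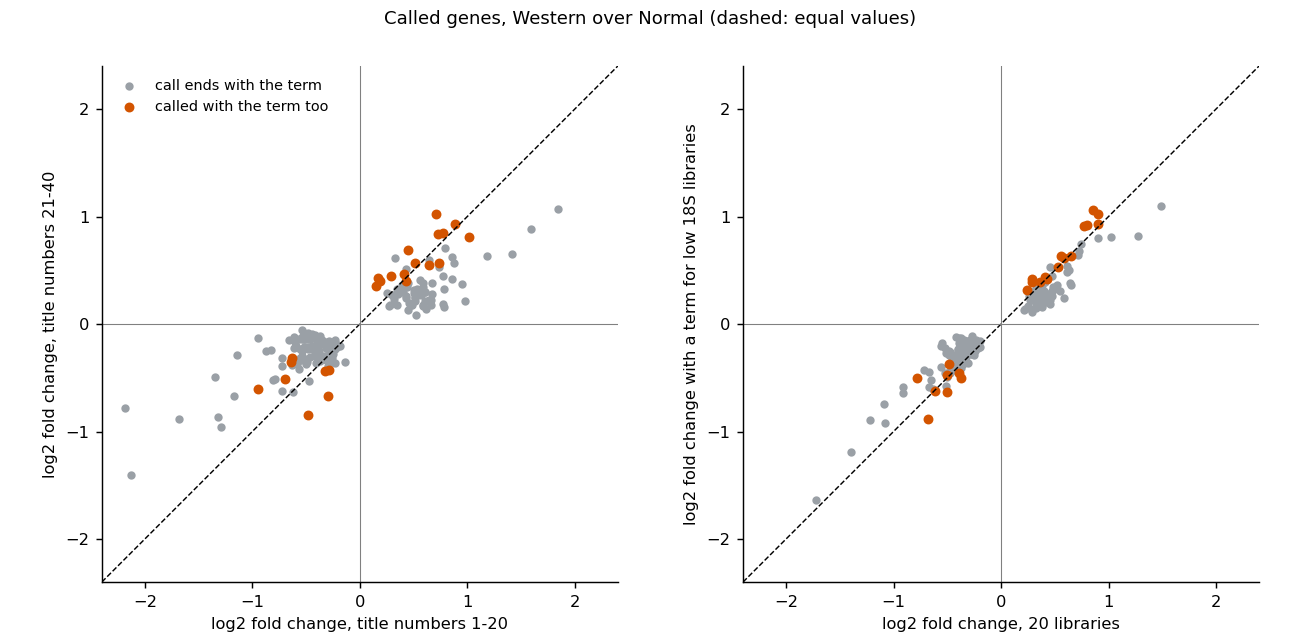
Each point is 1 of the 189 called genes, with its log2 fold change, Western over Normal, in the first against the second run of title numbers (left) and in all 20 libraries without against with a term for libraries low in 18S RNA (right). Orange points are the 23 genes also called with that term, and 158 of the 189 genes changed more in the first run than in the second; that points share a sign in both runs follows from how they were selected.

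In 3 of the 14114 genes (0.0213%) every Western library lay on the same side of every Normal library, and these were Adh1 and Slc4a8, higher (0.0142%), and Leo1, lower (0.00709%). Adh1, which oxidizes alcohols and retinol (ENSMUSG00000074207, GRCm39 chromosome 3, 137966752 to 137996462), had 10.6, 13.6 and 16.7 CPM as its lowest, median and highest value in Western libraries, against 4.96, 7.32 and 10.2 CPM in Normal libraries. Its mean was 13.7 ± 1.73 CPM on the Western and 7.33 ± 1.34 CPM on the normal diet (SD, n = 10 each), so that it rose by 0.90 ± 0.10 on the log2 scale (SE; edgeR adjusted p = 6.59e-05). Slc4a8, a sodium-driven exchanger of chloride and bicarbonate (ENSMUSG00000023032, chromosome 15, 100659621 to 100721849), had 3.41, 4.44 and 5.73 CPM in Western libraries, against 1, 2.38 and 3.29 CPM in Normal ones. It rose by 0.90 ± 0.15 (adjusted p = 0.00402 by edgeR). Leo1, a subunit of the PAF1 complex that travels with RNA polymerase II (ENSMUSG00000042487, chromosome 9, 75348761 to 75373726), had 9.14, 10.5 and 12.6 CPM in Western libraries, against 13, 16.6 and 19.1 CPM in Normal ones. It fell by 0.61 ± 0.08 in log2 units (edgeR adjusted p = 0.000283). Without Normal M10, Adh1 had 0.88 (adjusted p = 0.000134 by edgeR) and Slc4a8 had 0.82 (adjusted p = 0.0019), a fit that cannot separate diet from the 18S difference in the first run. With the low-18S term they had 0.93 (adjusted p = 0.00151 by edgeR) and 1.02 (0.0183).

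The 12 largest rises were, with Adh1, Slc4a8 and the clock genes Per2 and Hlf, Mthfd1l, Fmo2, Cys1, Lonrf1, Ahnak, Tspan4, Oxct1as and Timp3. Mthfd1l, which makes formate in the mitochondrial branch of folate metabolism, had 1.39, 3.53 and 5.17 CPM as lowest, median and highest value in Western libraries, against 0.984, 1.77 and 2.67 CPM in Normal libraries. Its log2 change was 1.02 ± 0.21 (adjusted p = 0.0171 by edgeR), 9 of 10 Western libraries lay above the Normal median, and the change was 1.42 ± 0.21 in the first run and 0.65 ± 0.33 in the second. Fmo2, a flavin monooxygenase, had 39.6, 61.4 and 98.3 CPM in Western libraries, against 24.2, 35.3 and 50.5 CPM in Normal libraries. It rose by 0.80 ± 0.14 (adjusted p = 0.00578 by edgeR), to a like extent in the first (0.77) and second run (0.85). Tspan4, a membrane tetraspanin (ENSMUSG00000025511, chromosome 7, 141055138 to 141073340), had 21, 37.8 and 41.7 CPM in Western libraries, against 18.2, 22.6 and 27.5 CPM in Normal libraries. It rose by 0.65 ± 0.09 (adjusted p = 0.000859 by edgeR), with 9 of 10 Western libraries above the Normal median. The other rises also left the groups overlapping.

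Cys1, which encodes the ciliary protein cystin, averaged 9.62 ± 1.99 CPM in Western and 5.6 ± 1.26 CPM in Normal libraries (SD, n = 10 each), a log2 change of 0.77. The large scaffold protein gene Ahnak averaged 526 ± 104 CPM in Western and 333 ± 71 CPM in Normal libraries, and its change was 0.95 ± 0.16 in the first run and 0.37 ± 0.11 in the second. Timp3, an inhibitor of matrix metalloproteinases, averaged 125 ± 23.4 CPM in Western and 80.7 ± 15.5 CPM in Normal libraries, a log2 change of 0.63. Lonrf1, a RING finger protein gene, averaged 15.4 ± 3.71 CPM in Western and 9.25 ± 2.05 CPM in Normal libraries, a log2 change of 0.72. Oxct1as, annotated antisense to the ketone body enzyme gene Oxct1, averaged 5.10 ± 1.36 CPM in Western and 3.22 ± 0.976 CPM in Normal libraries. The sources used here do not say whether counting used the strand, so its reads cannot be told from those of Oxct1, which had 1080 ± 106 CPM in Western and 1000.0 ± 118 CPM in Normal libraries and was not called. The Oxct1as call also ended with any of 11 libraries left out, up to an adjusted p of 0.0777 by edgeR without Normal M6.

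**Figure D3:**
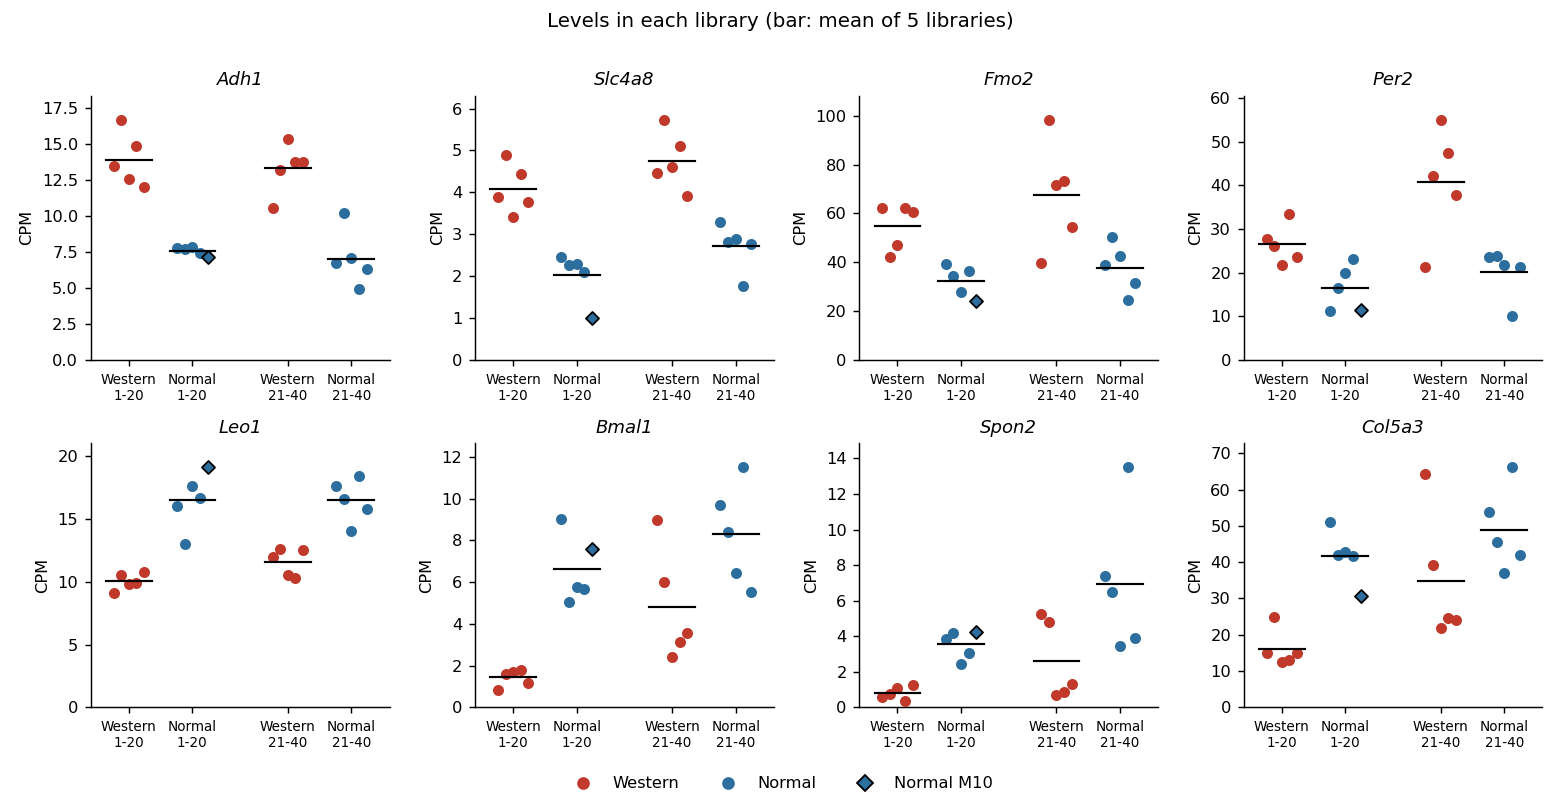
Each point is the CPM of 1 library, grouped by diet and title number, with a bar at the mean of 5 libraries and a diamond for Normal M10. Adh1, Slc4a8, Fmo2 and Per2 have their Western libraries higher and Leo1, Bmal1, Spon2 and Col5a3 lower; only Adh1, Slc4a8 and Leo1 separate the diets in every library.

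The 12 largest falls were, with the clock activator Bmal1, Spon2, Rasl11a, Col5a3, Pcyox1l, Grip2, Slc41a3, Prkag3, Mycn, Amigo3, Sec16b and Col15a1. Spon2, a secreted matrix protein (ENSMUSG00000037379, chromosome 5, 33353751 to 33378075), had 0.336, 0.969 and 5.26 CPM as lowest, median and highest value in Western libraries, against 2.45, 4.03 and 13.5 CPM in Normal libraries. It fell by 1.72 ± 0.34 in log2 units (edgeR adjusted p = 0.0126). All 5 first-run Western libraries lay below every Normal library, and 2 of the second-run ones, M31 and M32, did not. Grip2, a scaffold protein with PDZ domains, had 15.5, 21.3 and 36.2 CPM in Western libraries, against 19.4, 40.2 and 51.7 CPM in Normal libraries. It fell by 0.78 ± 0.12 in log2 units (edgeR adjusted p = 0.00159), with all 10 Western libraries below the Normal median. Slc41a3, a magnesium transporter, averaged 48.8 ± 14.9 CPM in Western and 79.4 ± 19 CPM in Normal libraries (SD, n = 10 each). Its log2 change was -1.14 ± 0.10 in the first run and -0.29 ± 0.20 in the second. Prkag3, a gamma subunit of the energy-sensing kinase AMPK, had 2.48, 3.52 and 4.08 CPM in Western libraries, against 3.45, 5.56 and 7.58 CPM in Normal libraries, a log2 change of -0.68 ± 0.14.

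Several of the falls rested on few counts or few libraries. Rasl11a, a small GTPase of the Ras family, averaged 0.712 ± 0.365 CPM in Western and 1.5 ± 0.55 CPM in Normal libraries (SD, n = 10 each), and its call ended with any of 11 libraries left out, up to an adjusted p of 0.0876 by edgeR without Normal M8. Mycn, a growth-related transcription factor gene, averaged 5.63 ± 1.96 CPM in Western and 8.97 ± 1.90 CPM in Normal libraries, with calls ending in 13 such fits. Sec16b, a scaffold of endoplasmic reticulum exit sites, averaged 3.70 ± 1.64 CPM in Western and 5.68 ± 2.12 CPM in Normal libraries, with calls ending in 10 fits. Pcyox1l, a relative of prenylcysteine oxidase, had a log2 change of -0.91 ± 0.20 and lost its call in 5 fits. Amigo3, a membrane protein with leucine-rich repeats, had -0.67 ± 0.15 and an adjusted p of 0.0527 by edgeR without Normal M6.

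Genes of the circadian clock were the gene list with the most called members for its size. Of 19 measured clock genes Per2, Hlf, Tef and Nr1d2 rose and Bmal1 and Nr1d1 fell, 15 had an unadjusted p under 0.05, and the median log2 change was 0.28, against -0.001 over all genes tested. Over all genes tested 1.34% were called and 18.5% had an unadjusted p under 0.05, the background for every list below. The clock list was chosen with earlier results of these data known, so it lends no independent support. The median was 0.14 in the first run, 0.33 in the second and 0.36 with the term for libraries low in 18S RNA. With that term Per2 and Tef kept their calls, Bmal1 (edgeR adjusted p = 0.0705), Nr1d1 (0.0976), Nr1d2 (0.175) and Hlf (0.285) lost them, and Per1 (0.69) and Cry2 (0.50) gained one.

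Among the activators, Bmal1 (ENSMUSG00000055116, chromosome 7, 112806152 to 112914735) had 0.85, 2.11 and 8.96 CPM as lowest, median and highest value in Western libraries, against 5.05, 7.03 and 11.5 CPM in Normal libraries. It fell by 1.40 ± 0.25 in log2 units (edgeR adjusted p = 0.00728). All 5 first-run Western libraries held less than 2 CPM, while Western M31 (8.96 CPM) and M32 (5.99 CPM) lay among the Normal libraries, and the change was -2.18 ± 0.24 in the first run and -0.78 ± 0.31 in the second. Its partner Npas2 had a change of -0.61 ± 0.25 and Clock one of -0.04 ± 0.09, and neither was called (adjusted p = 0.185 and 0.836 by edgeR).

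Among the repressors, Per2 (ENSMUSG00000055866, chromosome 1, 91343700 to 91387069) had 21.3, 30.6 and 55 CPM in Western libraries, against 10.1, 20.7 and 23.7 CPM in Normal libraries. It rose by 0.86 ± 0.17 (adjusted p = 0.0112 by edgeR), with all 10 Western libraries above the Normal median, by 0.71 ± 0.18 in the first run and 1.02 ± 0.23 in the second. Per3 (0.60 ± 0.16), Cry1 (0.43 ± 0.12) and Cry2 (0.28 ± 0.10) had positive changes and were not called. Per1 had 0.70 ± 0.15 in the second run and -0.01 ± 0.17 in the first, and Ciart had 0.79 ± 0.23 and -0.21 ± 0.22, without a call for the difference between runs. The REV-ERB gene Nr1d1 had 86.7, 106 and 138 CPM in Western libraries, against 108, 158 and 214 CPM in Normal libraries, and fell by 0.56 ± 0.09 in log2 units (edgeR adjusted p = 0.0049). Its paralog Nr1d2, named after its values were seen to complete the list, went the other way with 0.33 ± 0.08 (adjusted p = 0.0452 by edgeR).

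Among the output factors, Tef (chromosome 15, 81686622 to 81711064) had 164, 256 and 276 CPM in Western libraries, against 106, 168 and 195 CPM in Normal libraries. It rose by 0.59 ± 0.10 (adjusted p = 0.00467 by edgeR), by 0.64 ± 0.09 in the first and 0.55 ± 0.16 in the second run. Hlf rose by 0.73 ± 0.18 (adjusted p = 0.0436 by edgeR), but Western M31 and M32 lay below the Normal median, and its call ended with any of 15 libraries left out, up to an adjusted p of 0.0922 without Normal M6. Dbp had 125 ± 27.2 CPM in Western and 96.4 ± 28.7 CPM in Normal libraries (SD, n = 10 each) and was not called. With the first 2 principal components of the clock list as further terms edgeR called 0 genes in the whole comparison (929, or 6.58%, at an unadjusted p under 0.05), and the 189 genes had a median absolute change of 0.23. These components keep the diet difference of the clock genes themselves, so the terms take up part of any diet effect. With these terms Adh1 had 0.67 ± 0.16, Slc4a8 0.84 ± 0.24, Bmal1 -0.15 ± 0.18 and Tef 0.08 ± 0.09. Bmal1 and Tef belong to the list from which the components were made, so their small values follow in part from that. They therefore cannot be set against those of Adh1 and Slc4a8.

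**Figure D4:**
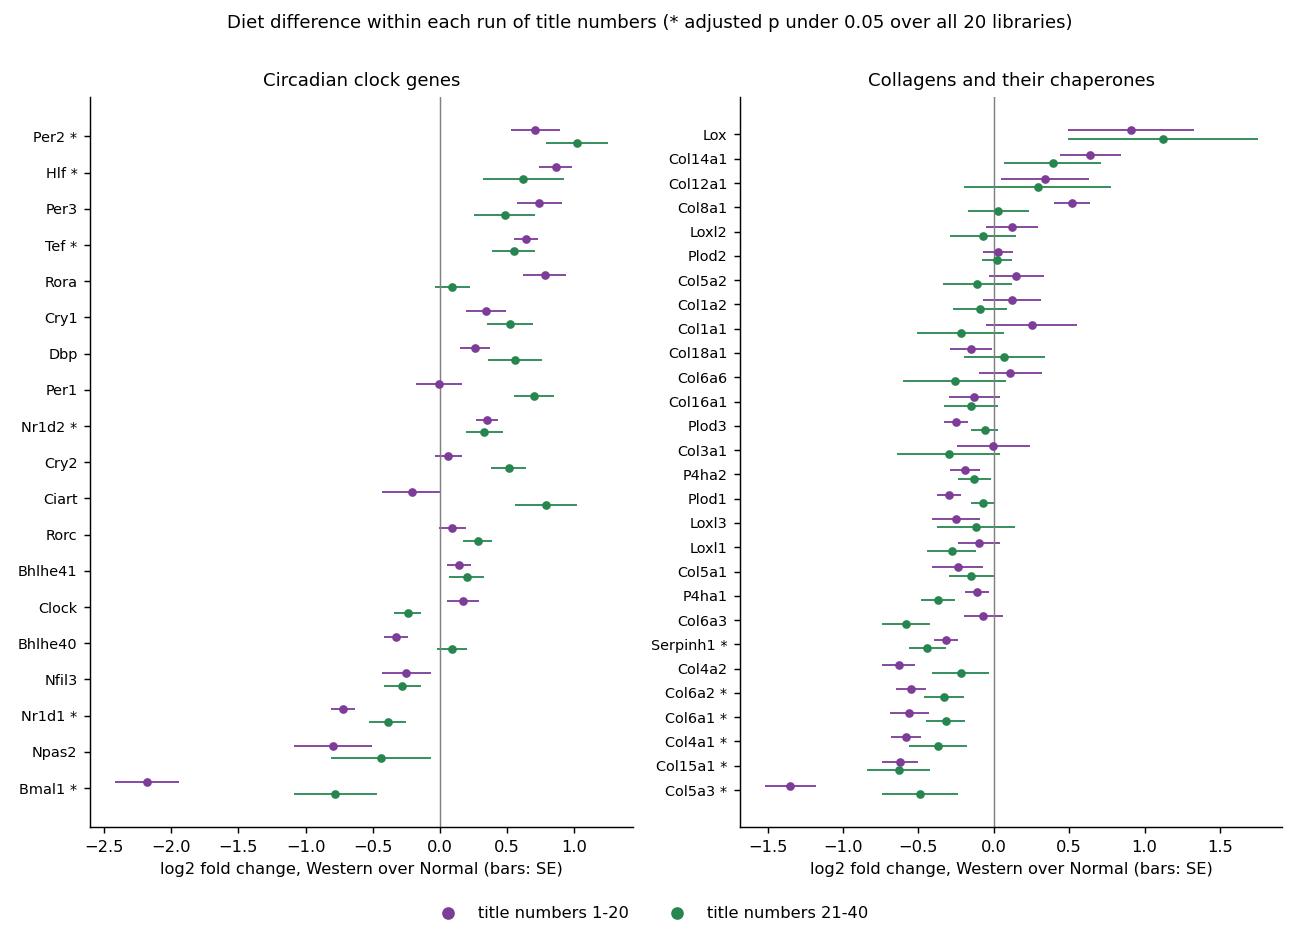
Log2 fold changes, Western over Normal, of the 19 measured clock genes (left) and the 28 measured collagens and collagen chaperones (right), with SE bars, within the first and the second run of title numbers. Asterisks mark genes called over all 20 libraries; Bmal1 is the lowest clock gene in both runs (-2.18 and -0.78), and Per2 is positive in both (0.71 and 1.02).

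Promoter sequence is shown for 2 of the clock genes that rose and for Adh1, the rise with the smallest p, so that clock-type motifs can be seen where they occur. Each is the 250 bases before the canonical transcript start in GRCm39, read 5′ to 3′ on the gene's strand, for Per2 chr1:91387047-91387296 (minus strand), for Tef chr15:81695365-81695614 (plus strand) and for Adh1 chr3:137983001-137983250 (plus strand), with motif letters in capitals.
Per2: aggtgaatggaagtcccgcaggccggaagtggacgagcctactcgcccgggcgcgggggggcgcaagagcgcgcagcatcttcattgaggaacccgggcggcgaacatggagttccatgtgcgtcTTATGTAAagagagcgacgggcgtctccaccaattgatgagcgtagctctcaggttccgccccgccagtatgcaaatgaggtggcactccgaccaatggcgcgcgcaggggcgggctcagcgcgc
Tef: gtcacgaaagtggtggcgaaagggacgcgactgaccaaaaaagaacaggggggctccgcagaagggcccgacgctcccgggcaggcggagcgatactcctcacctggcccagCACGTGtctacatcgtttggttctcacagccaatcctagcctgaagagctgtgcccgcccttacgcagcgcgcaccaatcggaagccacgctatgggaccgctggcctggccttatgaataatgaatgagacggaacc
Adh1: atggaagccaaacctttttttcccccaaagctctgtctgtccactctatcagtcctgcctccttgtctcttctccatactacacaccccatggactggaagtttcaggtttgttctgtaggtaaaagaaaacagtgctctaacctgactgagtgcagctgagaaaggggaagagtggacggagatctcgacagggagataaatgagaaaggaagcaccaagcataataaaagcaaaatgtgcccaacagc
The capitals mark a D-box (TTATGTAA, bound by Dbp, Tef and Hlf) in Per2, whose first base lies 125 bases before the start, and an E-box (CACGTG, bound by Bmal1 with Clock or Npas2) in Tef, 138 bases before the start. The Adh1 window held neither of them, nor the half-site AGGTCA to which REV-ERB and ROR receptors bind. Only these exact letters were searched. The Adh1 and Tef windows lie inside the annotated spans of their genes, and sequence before other annotated starts was not searched. Searched on both strands in 14057 promoters of tested genes, the E-box was in 7.53%, the half-site in 11.5% and the D-box in 0.519%. Among called genes that rose, 7, 13 and 3 of 77 promoters held the E-box, the half-site and the D-box, and among those that fell 11, 16 and 0 of 111 did. A match is a description of the sequence and not a bound site.

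Genes known to be induced by glucocorticoids had mostly positive changes, few of which passed the test. Of 15 measured, Glul and Klf9 rose and 0 fell, and 10 had an unadjusted p under 0.05, against 18.5% of all genes tested. The median change was 0.29, which was 0.09 in the first run and 0.45 in the second. Sgk1 (-0.25 ± 0.13), Errfi1 (-0.29 ± 0.15), Cdkn1a (-0.38 ± 0.24) and Pdk4 (-0.44 ± 0.24) had negative changes and were not called. Glul, which makes glutamine from glutamate, had 386, 438 and 530 CPM as lowest, median and highest value in Western libraries, against 304, 337 and 389 CPM in Normal libraries. It rose by 0.36 ± 0.06 (adjusted p = 0.00726 by edgeR), by 0.29 in the first run and 0.45 in the second. Klf9, a zinc finger factor, rose by 0.29 ± 0.07 (adjusted p = 0.0304 by edgeR), a call that ended with any of 9 libraries left out, up to 0.0645 without Normal M8, and with the low-18S term (0.338), with which Per1 and the sulfotransferase gene Sult1a1 (0.50) were called instead. Tsc22d3 (0.26 ± 0.07) and Zbtb16 (0.51 ± 0.20) were not called.

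In insulin signalling and AMP-activated kinase, 2 of 22 measured genes rose and 1 fell, with a median of 0.07. Foxo3, a transcription factor that insulin keeps out of the nucleus, had 93.5, 106 and 120 CPM in Western libraries, against 58.2, 76.1 and 103 CPM in Normal libraries, and rose by 0.48 ± 0.09 (adjusted p = 0.00728 by edgeR). Pik3r1, the regulatory subunit of phosphoinositide 3-kinase, averaged 129 ± 21.5 CPM in Western and 92.1 ± 17.3 CPM in Normal libraries (SD, n = 10 each) and rose by 0.48 ± 0.09. With the term for libraries low in 18S RNA their changes were 0.34 and 0.32 and neither was called, whereas Prkag3 had -0.88 (adjusted p = 0.0123 by edgeR). The insulin receptor gene Insr had 0.53 ± 0.15 in the first run and -0.03 ± 0.09 in the second, and was not called.

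The called genes among collagens and their chaperones were all lower, but the list moved both ways, with 19 negative and 9 positive changes. The positive ones, none of them called, included Lox (1.02 ± 0.35 in males) and Col14a1 (0.51 ± 0.17 in males). These 2 values come from the fit that also held the female libraries. Of 28 measured collagens and collagen chaperones 0 rose and 6 fell (Serpinh1, Col6a2, Col15a1, Col5a3, Col6a1 and Col4a1). An unadjusted p under 0.05 was found for 14, against 18.5% of all genes tested, and the median change was -0.17. The median of this list, taken in each Western library, had an SD of 0.295, so the spread between libraries exceeded its size. Summed levels were 1420 to 3190 CPM in Western and 2300 to 3260 CPM in Normal libraries. With the low-18S term Serpinh1 kept its call (-0.46, edgeR adjusted p = 0.0183) and the other 5 lost theirs, with adjusted p of 0.138 for Col15a1 to 0.356 for Col6a1. Serpinh1, the chaperone of collagen folding, had 114, 159 and 187 CPM as lowest, median and highest value in Western libraries, against 164, 200.0 and 236 CPM in Normal libraries. It fell by 0.39 ± 0.08 in log2 units (edgeR adjusted p = 0.0112), in the first (-0.32) and second run (-0.44). Col15a1, a collagen next to basement membranes, had 43.3, 90.6 and 119 CPM in Western libraries, against 95.4, 127 and 171 CPM in Normal libraries, and fell by 0.63 ± 0.13 (adjusted p = 0.0192). Col5a3, a minor chain of type V collagen, fell by 0.91 ± 0.19, by 1.35 in the first run and 0.49 in the second, and had an adjusted p of 0.0513 by edgeR without Western M14. The type VI chains Col6a1 and Col6a2 fell by 0.45 each, and the basement membrane chain Col4a1, named like Col6a1 after its values were seen to complete the list, by 0.48. The fibrillar collagens that make up most scar did not pass, with Col1a1 at 128 ± 81.1 CPM in Western and 126 ± 28.4 CPM in Normal libraries and Col3a1 at 179 ± 97.9 and 199 ± 61.3 CPM (SD, n = 10 each). Fibroblast markers had 0 of 14 genes called and a median of -0.12, with a summed level of 1960 to 2670 CPM in Western and 2040 to 2860 CPM in Normal libraries; their part in the collagen result was not tested.

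Chaperones of the endoplasmic reticulum were split. Of 23 measured, Hyou1 and Pdia4 fell, Sel1l and Herpud1 rose, and the median was -0.04; with the low-18S term only Herpud1 kept its call. Hyou1, an Hsp70-type chaperone, had 37.7, 39.6 and 42 CPM in Western libraries, against 41.7, 47.9 and 54.5 CPM in Normal libraries, so the groups met only at their edges. It fell by 0.28 ± 0.05 in log2 units (edgeR adjusted p = 0.011). Pdia4, a disulfide isomerase, fell by 0.30 ± 0.06 (adjusted p = 0.0152). Sel1l and Herpud1, which serve the removal of misfolded proteins, rose by 0.21 ± 0.05 and 0.29 ± 0.07, and their calls ended with any of 15 and 16 libraries left out, up to adjusted p of 0.0937 and 0.0793 by edgeR without Normal M6. Cytosolic heat shock chaperones had 0 of 24 genes called, with 19 negative changes (7111 of 14114 over all genes tested) and a median of -0.08.

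Genes of lipid handling had few called members. Fatty acid oxidation had 0 of 31 called and a median of -0.06, PPAR-driven fasting genes 0 of 20 and -0.08, fatty acid uptake 0 of 16 and -0.01, lipid droplet genes 0 of 20 and -0.02, and cholesterol synthesis with the LDL receptor 0 of 27 and -0.03. Lpl, the lipase that frees fatty acids from lipoproteins, had 5950 ± 549 CPM in Western and 5140 ± 509 CPM in Normal libraries (SD, n = 10 each) and was not called (0.21 ± 0.06, adjusted p = 0.0841 by edgeR). Ppara, the PPAR of fatty acid oxidation, had 29.2 ± 8.7 CPM in Western and 17 ± 12.6 CPM in Normal libraries and was not called. Its change was 1.37 ± 0.47 in the first run and 0.16 ± 0.17 in the second. Normal M10 held 45.8 CPM, above the highest Western value of 41.1 CPM. Without Normal M10 the gene would have been called (1.16, adjusted p = 0.0208 by edgeR), but with the low-18S term its change was 0.03 (adjusted p = 0.978 by edgeR). Acaca, which makes malonyl-CoA, was the 1 called gene of 17 in fatty acid synthesis, with 13.8 ± 2.36 CPM in Western and 9.93 ± 1.45 CPM in Normal libraries. Its log2 change of 0.47 ± 0.10 was 0.77 ± 0.14 in the first run and 0.19 ± 0.10 in the second, and its call ended without Western M14 or Normal M6, up to an adjusted p of 0.0527 by edgeR.

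Other lists of energy metabolism had few called members as well. Glucose uptake and glycolysis had 1 of 28 called, Pfkfb3, which makes the activator of phosphofructokinase (0.41 ± 0.10, adjusted p = 0.0481 by edgeR), a call that ended with any of 14 libraries left out, up to 0.0941 without Normal M8. Nuclear genes of complex I had 0 of 36 called and a median of 0.02, and the protein genes of the mitochondrial genome had 0 of 13 and 0.01. Folate and serine metabolism had 1 of 16 called, Mthfd1l, and retinoid and xenobiotic metabolism 2 of 17, Adh1 and Fmo2, with a median of 0.07. NRF2 antioxidant targets had 0 of 20 called and ribosomal protein genes 0 of 38.

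Lists of heart muscle genes had 0 called members. The hypertrophy and fetal programme had 0 of 14 called and a median of -0.06, the ventricular sarcomere 0 of 20 and 0.04, calcium handling 0 of 17 and 0.01, sodium and potassium channels 0 of 19 and 0.03, and ventricular markers 0 of 10 and -0.03. The ventricular leucine-rich repeat gene Lrrc10 came closest, with 112 ± 30.3 CPM in Western and 82.6 ± 9.84 CPM in Normal libraries (SD, n = 10 each; 0.43 ± 0.11, adjusted p = 0.0528 by edgeR). The actin gene Actc1 followed, with 9040 ± 786 CPM in Western and 10800 ± 1300 CPM in Normal libraries (-0.26 ± 0.07, adjusted p = 0.0589). Immediate early genes had 0 of 26 called.

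Transcripts of immune cells had positive medians and 0 called genes. Over all 14114 genes tested, 7003 changes were positive. MHC class II genes had 8 of 8 positive changes, with a median of 0.22 (0.36 in the first run and 0.10 in the second) and a summed level of 204 to 632 CPM in Western and 209 to 337 CPM in Normal libraries. The median of this list, taken in each Western library, had an SD of 0.411, so the spread between libraries exceeded it. Macrophage markers had 16 of 19 positive changes and a median of 0.15 (SD between Western libraries 0.254), which was 0.34 in the first run and 0.04 in the second, and summed to 323 to 615 CPM in Western and 256 to 476 CPM in Normal libraries. Their lowest p belonged to Cd163, a scavenger receptor of resident macrophages, with 13.1 ± 3.96 CPM in Western and 10.3 ± 1.8 CPM in Normal libraries (SD, n = 10 each; adjusted p = 0.192 by edgeR). Interferon response genes had 0 of 34 called, of which Ifit3 was nearest (0.48 ± 0.13, adjusted p = 0.0511 by edgeR), and complement had 0 of 15. T cell markers were near the floor, with 2 of 16 measured, and the chemokine gene Ccl5 had 1.52 ± 0.797 CPM in Western and 0.75 ± 0.286 CPM in Normal libraries (adjusted p = 0.0603).

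Markers of other cells also held few called genes. Endothelial markers had 0 of 18 called and a median of -0.02, epicardial markers 0 of 4, Schwann and neural markers 0 of 8, skeletal muscle markers 0 of 6, B cell markers 0 of 9, neutrophil markers 0 of 4 and erythroid markers 0 of 8. Atrial muscle markers had 0 of 12 called and a median of -0.19, and summed to 881 to 2750 CPM in Western and 909 to 2140 CPM in Normal libraries. Smtn, a smooth muscle cytoskeletal gene, was the 1 called gene of 12 smooth muscle markers (-0.42 ± 0.11, adjusted p = 0.0486 by edgeR), with Normal M10 at 162 CPM and the next Normal library at 264 CPM. Aqp7, a glycerol channel, was the 1 called gene of 5 measured adipocyte markers (-0.34 ± 0.09, adjusted p = 0.0495), while Adipoq, which defines fat cells, never passed 1.82 CPM. The Smtn and Aqp7 calls ended with any of 14 and 16 libraries left out, and with the low-18S term, as did those of Acaca, Pfkfb3 and Timp3. The non-collagen matrix list had 1 gene higher, Timp3, and 1 lower, Spon2, of 32.

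Whether the diet difference itself differed between the runs of title numbers was tested as an interaction, the change in the second run minus that in the first. The ribosomal RNAs led the result. Over all genes 63 were called (0.446%), 27 higher (0.191%) and 36 lower (0.255%), while 2412 (17.1%) had an unadjusted p under 0.05, and 2 of the 63 were among the 189 called over both runs. The mitochondrial ribosomal RNA mt-Rnr2 had 193, 2050 and 5400 CPM as lowest, median and highest value in Western libraries, against 255, 5280 and 7280 CPM in Normal libraries. Its change was -0.17 ± 0.20 in the second run and -4.14 ± 0.54 in the first, a difference of 3.98 (adjusted p = 0.00795 by edgeR). For mt-Rnr1 the difference was 3.66 and for Lars2 2.58. Genes with the opposite sign were Prkdc, a kinase of DNA end joining, with -0.02 ± 0.11 in the second run and 0.93 ± 0.12 in the first, Tasor, a subunit of the HUSH silencing complex, with -0.11 ± 0.15 and 1.23 ± 0.19, Abca9, an ABC transporter gene, with -0.05 ± 0.11 and 0.77 ± 0.10, Prr14l, with -0.22 ± 0.15 and 0.92 ± 0.12, and Sema5a, a semaphorin gene, with -0.80 ± 0.19 and 0.67 ± 0.19. None of the 24 largest rises and falls was called for a difference between runs. However, 18 of them changed more in the first run, and Slc41a3 (adjusted p = 0.0854 by edgeR) and Bmal1 (0.095) came nearest to a call. In simulated data this interaction recovered 17 of 50 genes changed 1.5-fold, so a missing call does not show equal changes.

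The count of this interaction was unstable. Without Normal M10 it was 1512, in 16 of 20 fits without 1 library it was smaller by over 1.5 times, and it was 2, the fewest, without any 1 of Western M14, M31 and M35 or of Normal M6, M8, M9 and M27. Both ribosomal RNAs mt-Rnr2 and mt-Rnr1 kept their calls in all 20 fits, and each of the other 6 named genes lost it in at least 7, up to an adjusted p of 0.0805 by edgeR for Lars2, Sema5a, Tasor and Abca9 without Normal M9. With the log2 share of Rn18s-rs5 as a term edgeR called 0 (876 at an unadjusted p under 0.05).

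The nearest comparison is the same diet contrast in females, with 20 further libraries of field Sham and 0 cGy, and the difference between the sexes was tested in a fit of all 40. The male minus female difference in the diet effect was called for 201 of 15121 genes (1.33%), 83 higher (0.549%) and 118 lower (0.78%) in males, and for 72 of the 189 genes called in males. In the same fit of all 40 libraries, the female diet effect was called for 30 genes (0.198%), 17 higher (0.112%) and 13 lower (0.086%). The 189 genes came from the fit of the 20 male libraries alone, so the 2 counts are not from like fits. Of the 189 genes, 120 (63.5%) had the opposite sign in females, against 49.1% of all 15121 genes, and 10 were called there. Of the 24 largest male rises and falls, 18 were called for the sex difference, 19 had the opposite sign in females, and 4 were called in females with that sign. Both the 24 and the 189 were picked by their change in males, and the sex test used the same male libraries. A raised share of calls for the sex difference among them therefore follows in part from that choice. The male side of this test holds the first-run libraries in which diet and the 18S difference nearly coincide. Without Normal M10 the sex difference was called for 298 genes. With the log2 share of Rn18s-rs5 as a term it was called for 81 genes. In title numbers 1 to 20 alone it was called for 68 genes, and in 21 to 40 alone for 20. Of the 8 named genes of smallest p for this difference, 8 kept their calls with the 18S share and 5 in title numbers 21 to 40.

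Tspan4, the membrane tetraspanin, had the smallest p for this difference among the named genes. It averaged 35.7 ± 6.21 CPM in Western and 22.5 ± 2.33 CPM in Normal males, and 19.5 ± 3.25 CPM in Western and 30.7 ± 7.05 CPM in Normal females (SD, n = 10 each, scaled over the 40 libraries). The log2 change was 0.66 ± 0.09 in males and -0.63 ± 0.09 in females, a difference of 1.29 ± 0.13 (adjusted p = 1.39e-08 by edgeR). Bmal1 averaged 3.09 ± 2.48 CPM in Western and 7.38 ± 2.09 CPM in Normal males, and 10.2 ± 4.36 CPM in Western and 3.23 ± 1.65 CPM in Normal females. Its change was -1.38 ± 0.27 in males and 1.74 ± 0.26 in females, a difference of -3.12 ± 0.37 (adjusted p = 1.23e-06). Adh1 had 0.91 ± 0.14 in males and -0.58 ± 0.14 in females (difference 1.49 ± 0.20, adjusted p = 1.29e-05 by edgeR), and Spon2 had -1.70 ± 0.32 and 1.58 ± 0.31 (difference -3.29 ± 0.45). Leo1, Cys1, Tef and Miga2, the last a mitochondrial fusion factor, also differed, by -1.01, 1.35, 1.12 and -0.64. Ahnak, Oxct1as, Pcyox1l, Mycn, Amigo3 and Col15a1 were the 6 of the 24 not called for the difference; Ahnak had 0.66 ± 0.14 in males and 0.005 ± 0.14 in females (adjusted p = 0.102 for the difference), and Col15a1 had -0.62 ± 0.15 and -0.10 ± 0.15 (adjusted p = 0.25).

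**Figure D5:**
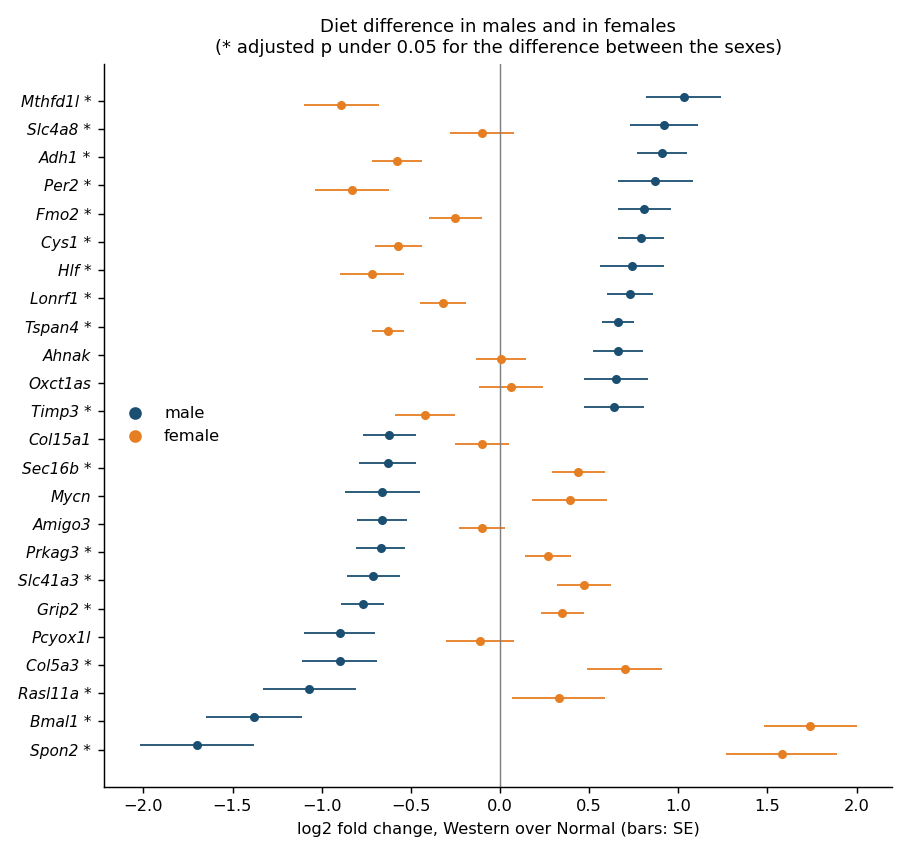
Log2 fold changes, Western over Normal, with SE bars, of the 12 largest male rises and 12 largest male falls, in males and in females. An asterisk marks the 18 genes called for the difference between the sexes, and Spon2 (-1.70 and 1.58) and Bmal1 (-1.38 and 1.74) are farthest apart. That many are called follows in part from picking the genes by their change in males.

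By list, the clock held 12 of the 201 genes. Of its 19 members 9 were higher and 3 lower in males by this test, and the median change was 0.29 in males and -0.31 in females. Dbp had 0.41 ± 0.16 in males and -0.88 ± 0.16 in females (difference 1.29 ± 0.22, adjusted p = 0.00078 by edgeR), Npas2 had -0.60 ± 0.27 and 1.25 ± 0.26 (difference -1.86 ± 0.38, adjusted p = 0.00444), and Ciart had 0.29 ± 0.20 and -1 ± 0.21 (difference 1.29 ± 0.29, adjusted p = 0.0113). Per2, Per3, Cry1, Cry2, Hlf, Tef and Bhlhe41 made up the other genes higher in males, and Bmal1 and Nfil3 the other lower ones. The labels give no hour of collection, so whether it differed between groups was not tested. In the collagen list 1 of 28 genes, Col5a3, was called for the sex difference (-0.90 ± 0.21 in males and 0.70 ± 0.21 in females), and the medians were -0.16 in males and -0.07 in females. Among glucocorticoid-induced genes Glul was called (0.37 ± 0.07 and -0.15 ± 0.07, adjusted p = 0.00252 by edgeR), and among endoplasmic reticulum chaperones Herpud1 (0.30 ± 0.09 and -0.31 ± 0.09, adjusted p = 0.00523).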

How the data were processed

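RNA from the left ventricle was column-purified, selected for poly-A, made into libraries with the NEBNext Ultra II kit and sequenced as read pairs on a NovaSeq-6000, per the labels' protocols. FastQC 0.11.9, STAR 2.7.8a and the build GRCm39 (mm39) are named in the submitters' processing notes; how reads were counted, whether by strand, and with which annotation is not given in the sources used here. The deposited values are raw counts per gene, whole numbers for 56941 gene IDs, of which 56323 matched GENCODE vM39 and 14114 passed edgeR's filterByExpr and held at least 99.7% of each library's counts. Tests used edgeR 4.0.16 (quasi-likelihood, TMM, Benjamini-Hochberg adjustment over all genes tested, threshold 0.05) in R 4.3.3, with a term for title numbers 1 to 20 or 21 to 40. Depth per library was 14086850 to 17994738 counts and the common coefficient of variation was 16.2%.

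Named genes were the called ones averaging 1 CPM or more with the 12 largest rises and the 12 largest falls, up to 4 called members of each gene list by smallest p (with 0 called, the 2 of smallest p) and the 8 genes of smallest p in each interaction. Other list members, and Insr, Oxct1, Rn18s-rs5 and Myl2, were named after their values were seen, and some genes the rule names in lists with 0 called members are not reported here. Members and gene lists were chosen with earlier results of these data known. Alternatives were RLE scaling, DESeq2 1.42.0, limma 3.58.1 voom, other filters, other sets of libraries, added terms and each library left out. Terms for libraries low in 18S RNA and removal of ribosomal RNA genes were added after the data were seen. The fits were tested on simulated data: of 50 genes changed 1.5-fold the diet comparison recovered 41, the run interaction 17 and the sex interaction 30. Among 13914 unchanged genes the diet comparison called 10. The simulated libraries held no difference between runs and no 18S difference aligned with diet, so recovery in their presence was not tested.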

Additional observations from a re-analysis of the deposited data

Results flagged for a closer look

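In a group of 10 libraries, a highest or lowest value was marked when its gap to the next one exceeded Dixon's 95% critical share of the range, which chance does in about 1 in 20 groups; 22 of 212 pairs of a gene and a group passed, and each is given by that share. In Western libraries, M32 was highest for the neutrophil genes S100a8 (0.802; 10.7 CPM, next 2.37 CPM) and Csf3r (0.692), for Krt18 (0.656) and for Uchl1 (0.512). Western M31 was highest for Col5a3 (0.482; 64.2 CPM, next 39.3 CPM) and Aqp7 (0.599), Western M12 for Ciita (0.582) and Lrrc10 (0.499), Western M11 for Myl7 (0.777; 230 CPM, next 51.1 CPM) and Western M33 for Tnni2 (0.538).

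Among Normal libraries M10 was lowest for Amigo3 (0.485), Smtn (0.628) and mt-Rnr1 (0.526; 176 CPM, next 1920 CPM), and highest for Pik3r1 (0.513; 132 CPM, next 96.4 CPM) and Sema5a (0.486). Normal M26, which also held atrial transcripts, was highest for Rasl11a (0.481), H2-DMa (0.561) and Igkc (0.676; 8.02 CPM, next 3.59 CPM) and lowest for Hmgcs1 (0.503). Normal M28 was highest for Chordc1 (0.542) and Klf6 (0.576), and Normal M29 for Spon2 (0.553; 13.5 CPM, next 7.4 CPM).

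The diet effect differed between the runs of title numbers (second minus first) for mt-Rnr2 by 3.98, mt-Rnr1 by 3.66, Lars2 by 2.58, Sema5a by -1.45, Tasor by -1.33, Prr14l by -1.12, Prkdc by -0.93 and Abca9 by -0.81. It differed between the sexes (male minus female) for Spon2 by -3.29, Bmal1 by -3.12, Adh1 by 1.49, Cys1 by 1.35, Tspan4 by 1.29, Tef by 1.12, Leo1 by -1.01 and Miga2 by -0.64. All are log2 differences past an adjusted p of 0.05 by edgeR.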

How the results depend on the processing

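For the diet comparison, 189 genes called (77 higher, 112 lower), the count stayed within 1.5 times under RLE scaling (220), a filter of 1 CPM in 10 libraries (218), removal of mitochondrial (177) or ribosomal RNA genes (203), all 80 libraries (194) and the log2 CPM of Myl7 as a term (264, 121 higher). It was 650 (363 higher, 287 lower) with DESeq2, 284 (158 higher) with limma voom, 604 (322 and 282) without the expression filter, 72 (40 and 32) without the run term and 68 (37 and 31) in a fit of all 40 male libraries. It was 34 (23 and 11) with the term for libraries low in 18S RNA, 9 (6 and 3) with the log2 share of Rn18s-rs5, 0 (0 and 0) with the clock components, 1380 (845 and 535) in title numbers 1 to 20 and 0 (0 and 0) in 21 to 40. Leaving out 1 library gave 69 to 814 (34 to 452 higher, 35 to 362 lower). The run interaction, 63, was 457 (215 and 242) with DESeq2, 185 (54 and 131) with voom, 827 (404 and 423) unfiltered, 5 (0 and 5) with all 80 libraries, 0 (0 and 0) with either the 18S share or the clock components, and 2 to 1512 (2 to 687, 0 to 825) with 1 library left out. The sex interaction, 201, was 316 (195 lower) with DESeq2, 81 (39 and 42) with the 18S share, 74 lower with Myl7, 53 (43 and 10) with the clock components, 73 (40 and 33) without the run term, 68 (18 and 50) in title numbers 1 to 20, 20 (13 and 7) in 21 to 40, and 135 to 298 (52 to 103, 83 to 195) with 1 library left out. The title number, shared by 1 male and 1 female library, was tried as a replicate block and gave 192 (77 and 115); the labels do not pair these libraries, whose deviations correlated from -0.232 to 0.198, with 2 of 20 males closest to their own number. Signs turned with the 18S share for mt-Nd6 (-0.01), Hbb-bs (0.55) and Tbx18 (-0.01). With the clock components they turned for Hlf (-0.33), Col5a3 (0.07), Slc41a3 (0.02), mt-Nd6 (-0.11), Hbb-bs (0.06), Cd248 (0.06), Tbx18 (-0.20) and, between the sexes, Tef (-0.002). They turned in title numbers 1 to 20 for Cd4 (0.19) and Bpgm (-0.10), in 21 to 40 for Itpr1 (-0.05), Igkc (-0.13), Hbb-bs (0.71) and Tbx18 (-0.003), with the low-18S term for Hbb-bs (0.50), and with 1 library left out for Cd4 (-0.28 to 0.03). The cause was not tested beyond fewer libraries in the split fits. At this depth genes under about 1 CPM rest on few counts.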

Other observations

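Further called genes, chosen after their values were seen, were in none of the gene lists. With the term for libraries low in 18S RNA none of these 7 was called by edgeR, with adjusted p of 0.0973 for Cebpb to 0.572 for Vegfa. The transcription factor genes Gata4, which acts in heart muscle, Trp53 and Hsf1 fell, by 0.28, 0.32 and 0.25 on the log2 scale. Vegfa, the endothelial growth factor, fell by 0.55, with -0.95 in the first run of title numbers and -0.13 in the second. Il33, Cebpb and the muscle ubiquitin ligase gene Fbxo32 rose, by 0.61, 0.47 and 0.38.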
